A study of Mus musculus with 10 samples.

Results

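Phosphoinositide 3-kinase (PI3K), its target kinase Akt and the proteins that restrain them were followed through 9 genes, measured in CD4+ T cells of the spleen early in abdominal sepsis. The genes were the kinase subunits Pik3cd and Pik3r1, the adaptor Irs2, the kinases Akt1 and Akt2, and the brakes Inpp5d, Phlpp1, Pik3ip1 and Tsc1. Every probe set that the platform annotation gave exactly 1 of these symbols was taken, which were 26 of 45101 probe sets on the array, for 9 of 18193 genes with such a probe set. All 9 genes were matched to RefSeq by Entrez identifier. The genes were picked with their difference between the surgery groups already known, so those differences are given as descriptions.

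The arrays came from 5 mice after cecal ligation and puncture (CLP), in which the cecum is tied off and pierced so that gut bacteria leak into the abdomen, and from 5 mice after sham laparotomy, in which the cecum was only handled. All mice were C57Bl/6, 8-12 weeks old, had halothane anaesthesia and laparotomy, and gave their spleens 6 h later. CD4+ cells were enriched by magnetic removal of other cells, to about 91% per the series' design text, and the RNA of each mouse, copied in 2 rounds of amplification, was read on 1 Affymetrix array. The spleen cells were a mixture of naive, memory and regulatory CD4+ cells with other cells left in, so a lower signal from fewer cells of a type and from less RNA per cell cannot be told apart.

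In T cells, PI3K is recruited to the membrane by the antigen receptor, by CD28-family costimulators and by cytokine receptors, and there makes a lipid that draws in Akt. Akt then releases the kinase complex TORC1 from the hold of the Tsc1-Tsc2 complex and drives FoxO transcription factors out of the nucleus. Brakes act at each step: Pik3ip1 inhibits the kinase at the membrane, Inpp5d (SHIP1) removes a phosphate from its lipid product, Phlpp1 removes an activating phosphate from Akt, and Tsc1 holds back TORC1.

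Intensities are given after scaling each array to a common median. Differences are on the log2 scale, CLP minus sham, each with its standard error (SE) from a limma fit across all probe sets with 5 arrays in each group. Of the 26 probe sets 21 passed a filter on dim signal and stood among the 27022 tested, with at least 1 for each gene. Among all tested probe sets 0.703% had a Benjamini-Hochberg adjusted p below 0.05, 0.167% with CLP higher and 0.537% with CLP lower. Of the 21 probe sets of these genes 1, that of Phlpp1, passed that threshold, with CLP higher, and none passed with CLP lower. The same fit gave 3 of the 21 an unadjusted p below 0.05, against 10.9% of all tested probe sets. The mean was higher in CLP arrays for 16 of the 21 and lower for 5, and the median log2 difference was 0.09, beside 0.005 over all tested probe sets.

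**Figure D1:**
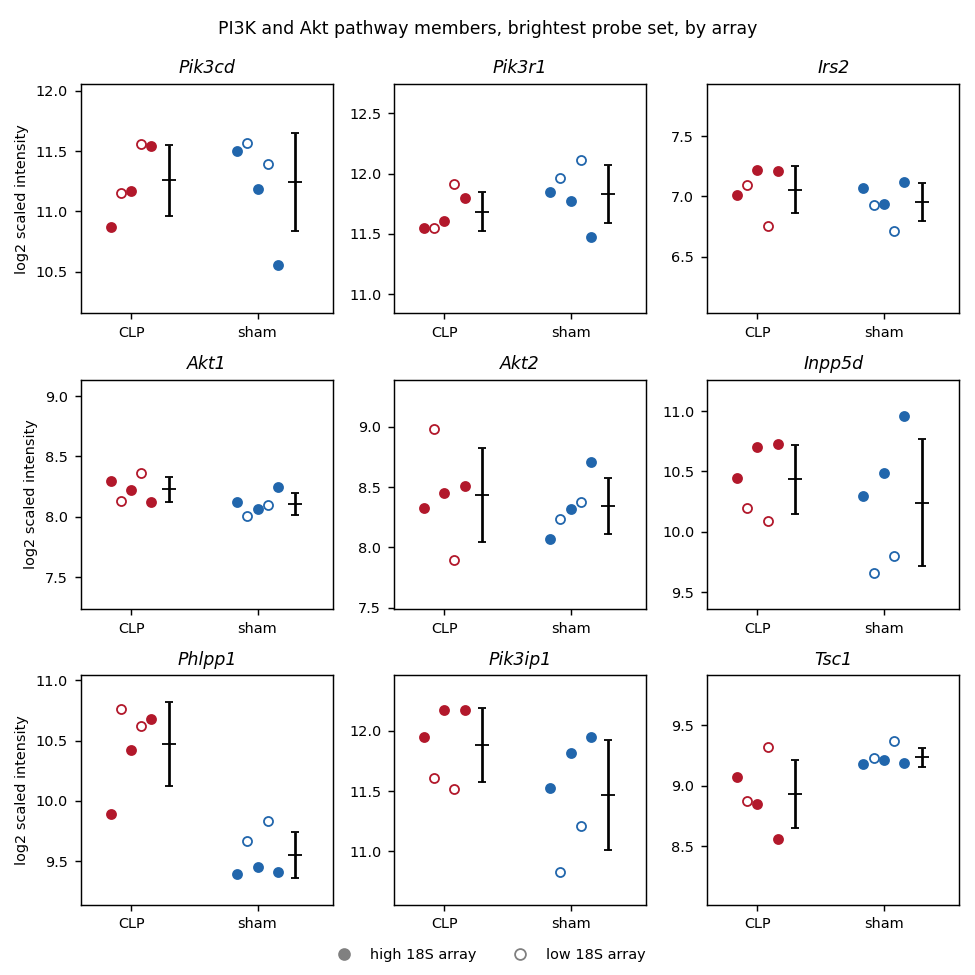
Log2 scaled intensity of the brightest probe set of each gene on each array, CLP arrays (red) left of sham arrays (blue), with mean and SD (n = 5 each) at the right of each group; filled points are arrays with high 18S ribosomal RNA signal and open points those with low signal. All panels span the same log2 range, and the groups are separate only for Phlpp1.

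Among the brakes, Phlpp1 stood furthest apart between the groups. Its only probe set (1426994_at) gave intensities of 951, 1736, 1366, 1578 and 1640 in CLP replicates 1 to 5, against 673, 815, 700, 907 and 679 in sham replicates 1 to 5. Every CLP array lay above every sham array, with CLP replicate 1 close to sham replicate 4 and the other 4 CLP arrays well above. In log2 units Phlpp1 averaged 10.47 ± 0.35 in CLP arrays and 9.55 ± 0.19 in sham arrays (SD, n = 5 each), a difference of 0.93 ± 0.16 (SE) or 1.90-fold. Of all tested probe sets 0.862% had every CLP array above every sham array and 2.11% every CLP array below, while none of the 21 lay wholly below. Leaving out single arrays gave differences between 0.85 (CLP replicate 2) and 1.07 (CLP replicate 1). The probe set no longer passed the threshold when any 1 of sham replicates 1 to 5 (0.89, 0.96, 0.90, 0.99 and 0.89) or of CLP replicates 2, 3 and 5 (0.85, 0.94 and 0.87) was left out.

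The promoter of Phlpp1 is shown because this was the gene with the largest difference. Those of Pik3ip1 and Inpp5d are shown because the brightest probe sets of these genes moved together from array to array. Each sequence runs 5′ to 3′ on the strand of the gene (RefSeq, GRCm38.p6), from 250 bases before to 50 bases after the start of transcription, with the transcribed bases in capitals. The Phlpp1 window is chr1:106171619-106171918, that of Pik3ip1 chr11:3330481-3330780 and that of Inpp5d chr1:87620062-87620361, all on the plus strand.
Phlpp1: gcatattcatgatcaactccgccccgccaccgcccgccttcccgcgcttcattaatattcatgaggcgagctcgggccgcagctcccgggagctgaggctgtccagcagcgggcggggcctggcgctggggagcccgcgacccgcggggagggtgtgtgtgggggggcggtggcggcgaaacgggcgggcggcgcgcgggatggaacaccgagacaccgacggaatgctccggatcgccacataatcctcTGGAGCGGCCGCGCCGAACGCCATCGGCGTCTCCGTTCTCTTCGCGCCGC
Pik3ip1: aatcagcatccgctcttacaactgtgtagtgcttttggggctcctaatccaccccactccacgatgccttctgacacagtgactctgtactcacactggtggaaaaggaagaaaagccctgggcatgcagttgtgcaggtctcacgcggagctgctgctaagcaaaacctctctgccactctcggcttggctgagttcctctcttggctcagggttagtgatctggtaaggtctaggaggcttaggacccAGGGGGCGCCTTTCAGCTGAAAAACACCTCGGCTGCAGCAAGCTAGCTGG
Inpp5d: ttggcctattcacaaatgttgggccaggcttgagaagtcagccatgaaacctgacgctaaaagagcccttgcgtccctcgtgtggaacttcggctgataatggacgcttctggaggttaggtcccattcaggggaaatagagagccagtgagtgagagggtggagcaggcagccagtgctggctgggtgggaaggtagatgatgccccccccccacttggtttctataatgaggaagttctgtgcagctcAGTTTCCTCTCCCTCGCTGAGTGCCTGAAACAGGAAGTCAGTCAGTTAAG
The Phlpp1 window was 70.7% G and C with 42 CpG dinucleotides, against 54.7% with 7 in Pik3ip1 and 53.7% with 6 in Inpp5d, beside a median of 52.7% G and C over all promoters. The forkhead motif TGTTTAC, searched on both strands for FoxO factors, was in 1 of the 16 promoter windows of the 9 genes, a window of Akt1, and in 3.65% of 32851 windows. The palindromic consensus of the glucocorticoid response element, likewise searched, was in none of the 16 and in 0.00913% of all windows.

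Pik3ip1, a transmembrane inhibitor of PI3K, was read by a pair of probe sets, and both were higher on average in CLP arrays. Its dimmer probe set (1439087_a_at) gave 634, 426, 520, 481 and 751 in CLP replicates 1 to 5, against 426, 183, 511, 222 and 389 in sham replicates 1 to 5. The groups overlapped, since sham replicate 3 lay above CLP replicates 2 and 4. The log2 difference was 0.78 ± 0.28 (SE), or 1.71-fold. The brighter probe set (1428332_at) gave 3943, 3127, 4600, 2933 and 4620 in CLP arrays, against 2964, 1824, 3604, 2364 and 3958 in sham arrays, in replicate order. Its log2 difference was 0.42 ± 0.22 (SE), or 1.33-fold, and the groups overlapped as well. Without sham replicate 2 it was 0.26.

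The arrays of Pik3ip1 were ordered by a second feature, the signal of an 18S ribosomal RNA control probe set, which split all 10 arrays cleanly. It was at least 3130 in CLP and sham replicates 1, 3 and 5 and at most 268 in CLP and sham replicates 2 and 4. Nothing in the labels says what the split is, so it is called here the 18S class. Within the high class the dimmer Pik3ip1 probe set read 520 to 751 in CLP arrays, against 389 to 511 in sham arrays. Within the low class it read 426 and 481 in CLP arrays, against 183 and 222 in sham arrays. On this probe set the groups did not overlap inside either class, which held 3 or 2 arrays a group. The share of all probe sets that do the same was not counted. The brighter probe set overlapped in the high class, with CLP replicate 1 at 3943 and sham replicate 5 at 3958. The log2 differences were 0.52 in the high and 1.17 in the low class for the dimmer probe set, and 0.33 and 0.54 for the brighter one. With the class as a term in the fit the dimmer probe set of Pik3ip1 passed the threshold, at the same difference of 0.78, and 2 of the 21 probe sets passed in all, against 2.66% of all tested probe sets in that fit.

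Inpp5d, the lipid phosphatase SHIP1, had higher CLP means in both its probe sets, each with groups that overlapped. The brighter probe set (1418110_a_at) gave 1395, 1174, 1658, 1090 and 1699 in CLP replicates 1 to 5, against 1259, 808, 1440, 889 and 1987 in sham replicates 1 to 5. Its lowest arrays in each group were those of the low 18S class. The log2 difference was 0.19 ± 0.23 (SE), 0.04 within the high class and 0.42 within the low class. It was 0.05 without sham replicate 2 and 0.37 without sham replicate 5. The dimmer probe set (1424195_a_at) differed by 0.27 ± 0.16, with CLP replicate 2 at 400 and the other CLP arrays between 202 and 271, against 197 to 257 in sham arrays. Without CLP replicate 2 that difference was 0.11.

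Tsc1, which with Tsc2 holds back TORC1, was the brake whose tested probe sets had lower CLP means. Its brightest probe set (1455252_at) gave 537, 470, 461, 639 and 378 in CLP replicates 1 to 5, against 581, 601, 591, 659 and 586 in sham replicates 1 to 5. The CLP arrays other than replicate 4 lay below every sham array. The sham arrays spread little, with an SD of 0.07 log2 units, against 0.28 in CLP arrays (n = 5 each), and the log2 difference was -0.30 ± 0.13 (SE). The second tested probe set of Tsc1 (1422043_at) differed by -0.01 ± 0.14.

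**Figure D2:**
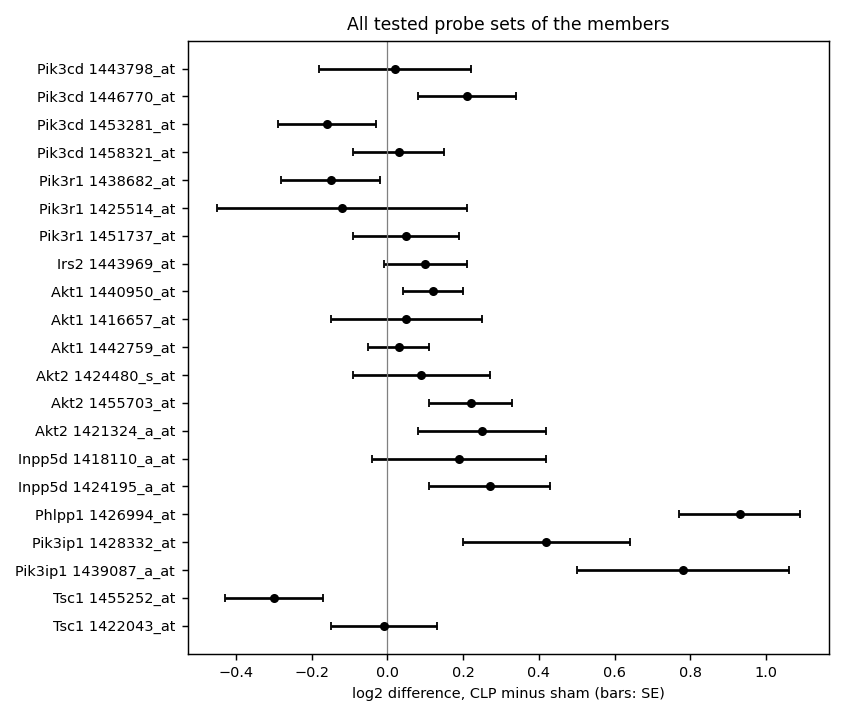
Log2 difference, CLP minus sham, of the 21 tested probe sets with SE bars (n = 5 arrays in each group), grouped by gene. Phlpp1 at 0.93 and Pik3ip1 at 0.42 and 0.78 lie to the right, and 1 probe set of Tsc1 at -0.30 furthest to the left. The probe sets of Pik3cd, Pik3r1, Akt1 and Akt2 lie between -0.16 and 0.25, beside 0.19 and 0.27 for Inpp5d.

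Differences in the kinase itself were small. Pik3cd encodes the catalytic delta subunit, the form most used by lymphocytes, and its brightest probe set (1443798_at) gave 1871, 2273, 2306, 3021 and 2982 in CLP replicates 1 to 5, against 2897, 3037, 2330, 2688 and 1506 in sham replicates 1 to 5. The groups covered nearly the same range, and the log2 difference was 0.02 ± 0.20 (SE). With sham replicate 5 left out it was -0.15, and with CLP replicate 1 left out 0.12. The other 3 tested probe sets of Pik3cd differed by 0.21 ± 0.13, -0.16 ± 0.13 and 0.03 ± 0.12. The pair that the annotation assigns to the RefSeq transcript of Pik3cd fell below the filter, at no more than 100 on any array. The 4 tested ones are assigned to other sequence records.

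Pik3r1, the regulatory subunit that stabilises the catalytic one and carries it to phosphorylated receptors, was likewise read at similar levels in both groups. Its brightest probe set (1438682_at) gave 3000, 2994, 3133, 3835 and 3577 in CLP replicates 1 to 5, against 3695, 3983, 3491, 4421 and 2843 in sham replicates 1 to 5, a log2 difference of -0.15 ± 0.13 (SE). A second probe set (1425514_at) gave 636, 306, 599, 288 and 419 in CLP arrays, against 616, 251, 604, 319 and 716 in sham arrays, in replicate order. On this probe set of Pik3r1 the arrays fell apart by 18S class, with the 4 low-class arrays between 251 and 319 and the 6 high-class arrays between 419 and 716, while CLP and sham differed by -0.12 ± 0.33. The annotation assigns this probe set, another tested one (CLP minus sham 0.05 ± 0.14) and one at the floor on every array to the same sequence record of Pik3r1.

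Irs2, an adaptor that links insulin and cytokine receptors to PI3K, lay close to the filter on dim signal. It read between 108 and 149 in CLP arrays, with a median of 136, against 104 to 140 with a median of 123 in sham arrays, and its log2 difference was 0.10 ± 0.11 (SE). For Akt1, the more widely expressed of the Akt kinases measured here, 3 tested probe sets differed by 0.12 ± 0.08, 0.05 ± 0.20 and 0.03 ± 0.08. The brightest of these (1440950_at) ran from 278 to 328 in CLP arrays, against 257 to 303 in sham arrays. For Akt2, the form best known for insulin-driven glucose uptake, 3 tested probe sets differed by 0.09 ± 0.18, 0.22 ± 0.11 and 0.25 ± 0.17. The probe set of Akt2 with the smallest error (1455703_at) gave 297, 383, 348, 358 and 413 in CLP replicates 1 to 5, against 282, 288, 303, 318 and 353 in sham replicates 1 to 5. The groups overlapped in every Akt1 and Akt2 probe set.

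The 5 probe sets below the filter were a pair of Pik3cd and 1 each of Pik3r1, Akt1 and Tsc1. Their intensities lay between 53.6 and 100 in CLP arrays, against 52.8 to 97.1 in sham arrays, near the floor of 69.8 to which lower values were set. Their log2 differences ran from 0 to 0.10.

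The 18S class was set beside the surgery group for all 21 tested probe sets, in a fit with both terms; the split itself was found in these data. Every difference in this paragraph is high minus low 18S class, over 6 and 4 arrays. In size, the class difference exceeded the CLP difference in 15 of the 21. The share of all tested probe sets with a larger class difference was not counted, so this is no trait of these genes. By limma 4 were called higher in the high class at an adjusted p below 0.05 and none lower, which is 19% of the 21 beside 15.1% of all tested probe sets (10.1% higher and 4.99% lower), so this share lies near the background. The 4 were the second probe set of Pik3r1 (1.03 ± 0.14 SE, adjusted p = 0.000746), both of Pik3ip1 (0.64 ± 0.11, adjusted p = 0.0041, and 0.80 ± 0.16, adjusted p = 0.00663) and the brighter one of Inpp5d (0.67 ± 0.14, adjusted p = 0.00832). Phlpp1 leaned the other way, at -0.35 ± 0.13 (adjusted p = 0.102 by limma), and its CLP minus sham difference was 0.91 within the high class and 0.94 within the low class.

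**Figure D3:**
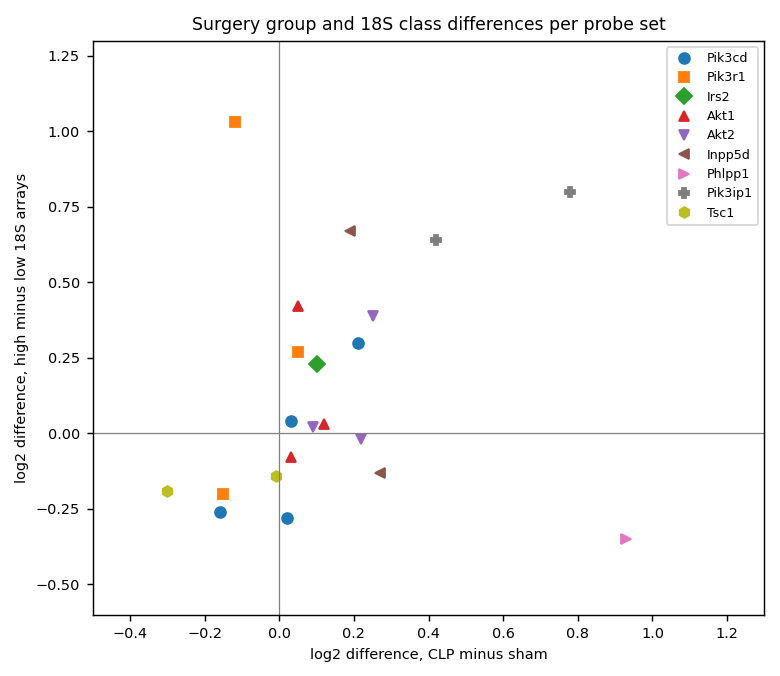
Each tested probe set by its log2 difference between CLP and sham (horizontal) and between high and low 18S arrays (vertical), with a symbol for each gene. Phlpp1 lies far right and below 0, Pik3ip1 right and high, and 1 probe set of Pik3r1 high (1.03) with a CLP difference of -0.12.

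On their brightest probe sets Pik3ip1 and Inpp5d went up and down together over the arrays. The deviations of these probe sets from the group means had a Pearson r of 0.96 over the 10 arrays. Within each surgery group both were lowest in the low 18S class. The dimmer Inpp5d probe set did not go with the class in this way. By the same measure Pik3cd and Pik3r1, whose products form 1 enzyme, also moved together (r = 0.88), and Pik3r1 ran against Inpp5d (r = -0.72). Probe sets of the same gene differed in how they went with the 18S class. High minus low, those of Pik3r1 differed by -0.20 (brightest), 1.03 and 0.27. Those of Pik3cd differed by -0.28 (brightest), 0.30, -0.26 and 0.04, and those of Inpp5d by 0.67 (brightest) and -0.13. The r values therefore describe the brightest probe sets only. Phlpp1 had an r of -0.43 with Inpp5d and -0.44 with Pik3ip1. These are descriptions over 10 arrays that share the 18S split.

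**Figure D4:**
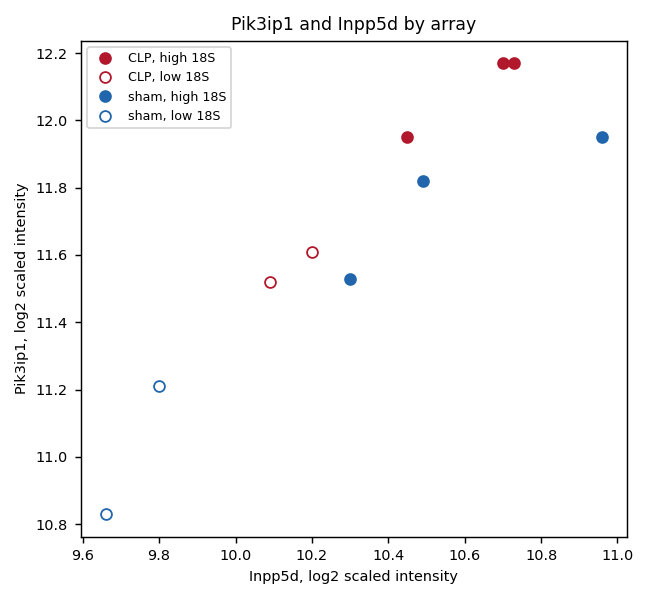
Log2 scaled intensity of Pik3ip1 against that of Inpp5d on the 10 arrays, by their brightest probe sets, with CLP in red and sham in blue; filled points are high and open points low 18S arrays. The points follow 1 line, and within each surgery group the low 18S arrays lie at the lower left, with sham replicate 2 lowest for both genes.

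The genes whose log2 values were most like those of Phlpp1 over the 10 arrays were Gm5817 (Pearson r = 0.961), Cblb (0.958) and Vmp1 (0.954). Taken as deviations from the group means they were Tmem260 (0.936), 4930471G03Rik (0.935) and Ctla2a (0.933). For Pik3ip1 the closest genes by values were Kdm3b (0.984), Dctn2 (0.977) and Cndp2 (0.974), and for Inpp5d they were Sidt2 (0.985), Edc4 (0.983) and Fkbp15 (0.978). By deviations they were Sec24c (0.992), Slc36a1 (0.991) and Kdm3b (0.988) for Pik3ip1. For Inpp5d they were Atp13a1 (0.993), Rxrb (0.986) and Edc4 (0.985). Each of these r values was above the 0.96 between Pik3ip1 and Inpp5d. For the other 6 genes the closest by values were Ptprv for Pik3cd, Ptpn3 for Pik3r1, Pidd1 for Irs2, Clcn5 for Akt1, Gabarap for Akt2 and Mga for Tsc1.

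The rest of the pathway was read from 98 other genes in 6 lists, of which 88 were tested, each by its brightest probe set. Of the 88, 1 rose and none fell at an adjusted p below 0.05 by limma, against 0.75% of all 13073 genes (0.199% rose and 0.551% fell), and 14 had an unadjusted p below 0.05, against 11.8% of all genes. Higher and lower means were nearly balanced, at 45 and 43, with a median log2 difference of 0 beside 0.005 over all genes. The gene that rose was Tnfrsf4 (OX40), a costimulatory receptor that feeds into PI3K, with 998, 1785, 1706, 1596 and 1674 in CLP replicates 1 to 5, against 664, 752, 839, 725 and 1076 in sham replicates 1 to 5. Its log2 difference was 0.93 ± 0.18 (SE, adjusted p = 0.0441 by limma), and the groups overlapped only through CLP replicate 1 and sham replicate 5. Tnfrsf4 missed the threshold without any 1 of sham replicates 1 to 4 or CLP replicates 2 to 5, at differences between 0.86 and 0.94, and its adjusted p ran from 0.00421 to 0.153 over 18 other settings.

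Cblb, a ubiquitin ligase that restrains T cell activation and PI3K recruitment, belonged to the list of PI3K subunits and adaptors and followed Phlpp1 closely. It gave 1578, 3522, 2770, 2289 and 2789 in CLP replicates 1 to 5, against 1100, 1564, 1321, 1442 and 1298 in sham replicates 1 to 5. Every CLP array of Cblb lay above every sham array, with CLP replicate 1 again the lowest. The log2 difference of Cblb was 0.91 ± 0.19 (SE, adjusted p = 0.058 by limma, from 0.00494 to 0.186 over 18 other settings), and both of its remaining probe sets were higher too, at 0.65 and 1.00. In that list of 16 tested genes 9 were higher and 7 lower, and none passed the threshold, with 2 at an unadjusted p below 0.05. Pik3r5, a regulatory subunit of the gamma form, differed by -0.34 ± 0.15 and Cbl, a relative of Cblb, by -0.32 ± 0.16.

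Among 20 tested phosphatases and other brakes 11 were higher and 9 lower, and none passed the threshold by limma, with 3 at an unadjusted p below 0.05. Inpp4a, which acts on a later lipid of the pathway, lay below every sham array in all CLP arrays, at 335 to 383, against 387 to 558 in sham arrays (log2 difference -0.40 ± 0.10, adjusted p = 0.116). Trib2, a pseudokinase, differed by 0.62 ± 0.20 and Sesn3, a sestrin that restrains TORC1, by -0.26 ± 0.09. Phlpp2, the relative of Phlpp1, differed by -0.09 ± 0.14, and Tsc2, the partner of Tsc1, by -0.11 ± 0.09.

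In the list of Akt, its kinases and the TOR complexes 5 of 16 were higher and 11 lower, with a median of -0.06. None passed by limma and 3 had an unadjusted p below 0.05. Mlst8, a subunit of both TOR complexes, read 295 to 323 in CLP arrays, against 235 to 290 in sham arrays, a small difference of 0.21 ± 0.08 with no overlap. Rheb, the GTPase that switches on TORC1, differed by -0.32 ± 0.13, and Eif4ebp2, a translation repressor that TORC1 inactivates, by 0.33 ± 0.14. The other tested probe sets of Eif4ebp2 differed by -0.01 to 0.16.

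FoxO factors and their targets went both ways, with 5 of 13 higher, 8 lower and a median of -0.02. None passed by limma and 2 had an unadjusted p below 0.05. Foxo1 differed by -0.19 ± 0.10, and Ccng2, a cyclin that FoxO factors induce, read 1340 to 1506 in CLP arrays, against 1511 to 1893 in sham arrays (-0.26 ± 0.09), while its other probe set gave 0.06. Bcl2l11 (Bim), a killer protein that FoxO factors induce, differed by 0.55 ± 0.21. Klf2 and Il7r, which keep naive T cells circulating and alive, differed by -0.13 ± 0.16 and -0.02 ± 0.08.

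Of 10 tested receptors and adaptors that recruit PI3K in T cells, 5 were higher and 5 lower, Tnfrsf4 rose and 3 had an unadjusted p below 0.05. Trat1, an adaptor of the T cell receptor, gave 668 to 1202 in CLP arrays, against 1327 to 1806 in sham arrays, with no overlap (-0.72 ± 0.16, adjusted p = 0.0694 by limma). Cd28, the main costimulatory receptor, differed by -0.35 ± 0.13, while its other probe set gave -0.11. Of 13 tested TORC1-driven nutrient and lipid genes 10 were higher and 3 lower, with a median of 0.05, none passed by limma and 1 had an unadjusted p below 0.05. That gene was Hif1a (0.48 ± 0.17, its other tested probe sets from 0 to 0.62), the oxygen-sensing factor whose output TORC1 raises. It was followed by Hk2, a hexokinase (0.31 ± 0.17), and Asns (0.24 ± 0.23). Over the 6 lists every CLP array lay above every sham array in 2 genes and below in 3, beside 0.849% and 2.28% of all genes.

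**Figure D5:**
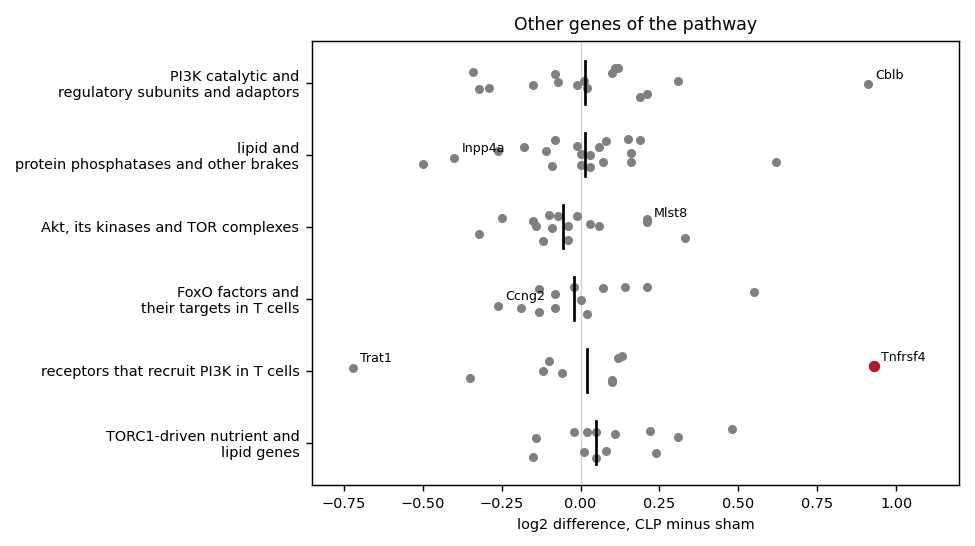
Log2 difference, CLP minus sham, of the 88 tested genes in 6 lists of the pathway (vertical position within a list is spread for legibility; the black bar is the list's median). Tnfrsf4 (red) passed the threshold, and the other genes named in the plot are those whose groups did not overlap.

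Markers of the cells in the samples were set beside these results. All 7 CD4 T cell markers on the array were lower on average in CLP arrays and none was called; their summed intensity ran from 12064 to 14719 in CLP arrays, against 14443 to 20575 in sham arrays. The NK cell markers summed to 2694 to 3125 in CLP arrays, against 3368 to 4113 in sham arrays, and the platelet markers to 1204 to 1601, against 1604 to 1726. Of 5 tested NK cell markers 1 was higher on average in CLP arrays and 4 lower. Of 5 tested platelet markers 4 were higher and 1 lower, so the lower platelet sum went against most of its markers. None of these was called. As for the CD4 T cell markers, the sums overlapped for B cells (3330 to 6183 in CLP and 3194 to 5258 in sham arrays), monocytes and macrophages (3823 to 4674 and 3188 to 4925), neutrophils (2390 to 15095 and 4161 to 11840), dendritic cells (773 to 1068 and 728 to 867), CD8 T cells (465 to 575 and 391 to 541) and erythroid cells (1574 to 5427 and 1230 to 2592). B cells and myeloid cells also use Pik3cd and Inpp5d, and the part of these other cells in the values of Phlpp1, Pik3ip1 and the other members was not tested.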

How the data were processed

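The authors deposited 1 table of linear intensities, 1 value per probe set and array, with no missing columns; how they were background-corrected or scaled is not given in the sources used here. Genes were named from the platform annotation (34945 probe sets with 1 symbol, 932 with several, 9160 unnamed here, 64 controls). Arrays were brought to 1 common median (deposited medians 127.6 to 142.4), values below the 25th percentile (69.8) were set to it, log2 was taken, and controls and probe sets with a mean log2 under the 40th percentile (6.70) were left out. Groups were compared with limma 3.58.1 (R 4.3.3) over 27022 probe sets with Benjamini-Hochberg adjustment. A gene of a list was read by its brightest tested probe set. Sources name an individual mouse per array, and 5 arrays a group limit the precision.

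The members and lists were chosen with earlier results of these data known. Of each list the text names genes that passed, the 3 lowest p and those with no overlap between groups; Phlpp2, Tsc2, Klf2 and Il7r were added for their roles after their values were seen. Likeness was Pearson r with the brightest probe set of each gene. Alternatives were quantile or no scaling, no filter, other floors, array weights, the 18S class or replicate number as a block, probe set means, and each array left out. Sham titles all say replicate 1, so their suffix served as number; deviations of same-numbered arrays correlated at 0.18, 0.58, 0.38, 0.18 and 0.06 for numbers 1 to 5, which did not establish pairs. On simulated CLP and sham arrays with 27022 probe sets, 43.3% of 1.5-fold, 83.6% of 2-fold and 97% of 3-fold changes were recovered. These rates hold for the simulated arrays only, and calls in the data moved when single arrays were left out. Figures were drawn with matplotlib 3.10.9.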

Additional observations from a re-analysis of the deposited data

Results flagged for a closer look

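Of 49 sets of 5 arrays with some spread, 5 held 1 array far from the other 4 relative to the whole range (a ratio above 0.71, which chance gives in about 1 in 20 sets). CLP replicate 4 was the low array in 3 of them: Akt1 1416657_at at 189, with the next array at 292 (ratio 0.733), Akt1 1425711_a_at at 66.8, next 89.1 (0.788, below the filter on dim signal), and Akt2 1421324_a_at at 117, next 156 (0.745). CLP replicate 5 was high for Pik3cd 1458321_at at 285, next 226 (0.792). Sham replicate 4 was high for the brightest Tsc1 probe set at 659, next 601 (0.736), within a narrow sham spread.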

How the results depend on the processing

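Of the 21 tested member probe sets 13, with Phlpp1 and both of Pik3ip1 and of Inpp5d among them, kept the sign of their log2 difference in all 18 other settings, and 8 did not. Tsc1 1422043_at kept it in 10, Pik3cd 1443798_at in 14 and Pik3r1 1425514_at in 15 (from -0.34 to 0.11). The blocks and the lack of a filter cannot move a difference in this balanced design, so the sign counts rest on the other settings. Calls also depended on the setting, and the cause was not tested. Some settings hold fewer arrays or more tests by construction. The number of probe sets called by limma, 190 as reported, was 3 with no filter on dim probe sets, 718 with the 18S class as a block, 509 with array weights, and between 4 (without sham replicate 3) and 507 (without CLP replicate 1) with 1 array left out, moving by over 1.5 times for every array but CLP replicate 4. Member probe sets called, 1 as reported, were 0 with no filter (4 at an unadjusted p below 0.05; Phlpp1 then had an adjusted p of 0.127), 2 with the 18S block, and 0 to 1 with 1 array left out (2 to 6 unadjusted). Over all 18 settings the adjusted p of Phlpp1 ran from 0.00251 to 0.127, and that of the dimmer Pik3ip1 probe set from 0.028 (18S block) to 0.543. Other pathway genes called, 1 as reported, were 0 with no filter (15 unadjusted), 5 with the 18S block (Bcl2l11, Cblb, Inpp4a, Tnfrsf4 and Trat1), 3 with array weights, 4 with probe sets of a gene averaged, and 0 to 2 with 1 array left out (10 to 18 unadjusted). The share of all genes called with averaged probe sets is not given here, so the 4 have no background beside them. With the replicate block 248 probe sets, 1 member probe set (Phlpp1) and 3 other pathway genes passed; the numbers share no stated origin, and 1 of 5 CLP arrays correlated best with the sham array of its number. Signals near the floor limit what could be seen for Irs2 and the 5 probe sets below the filter.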

Other observations

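Dimmer probe sets of 3 other pathway genes passed the threshold while the brightest one of the same gene did not. These were picked after their values were seen, and the other dimmer probe sets of the lists did not pass. Of all tested probe sets 0.703% passed, and the share among the dimmer ones was not worked out. One of Sgk3, a kinase related to Akt that PI3K also activates, fell (log2 difference -0.66 ± 0.12 SE, adjusted p = 0.0369 by limma), beside -0.04 ± 0.15 for its brightest. One of Trat1 fell (-1.28 ± 0.16, adjusted p = 0.0163), in the same direction as its brightest at -0.72, and one of Bcl2l11 rose (0.72 ± 0.12, adjusted p = 0.0311), beside 0.55. CLP replicate 1 was the lowest CLP array for Phlpp1 (951), Cblb (1578) and Tnfrsf4 (998), with the other CLP arrays at 1366 or more, 2289 or more and 1596 or more.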
